A study of Mus musculus with 6 samples.

Results

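Most of the energy that a hepatocyte draws from fat and amino acids passes through the respiratory chain of its mitochondria. The genes described here are the nuclear genes for the subunits of that chain, for cytochrome c and for the ATP synthase. They are the rows of the deposited count table whose symbols begin with Nduf and a subunit letter and number, Uqcr, Cox4 to Cox8 or Atp5, together with Sdha, Sdhb, Sdhc, Sdhd, Cyc1 and Cycs. The table held 83 such genes among 17275. Of these, 35 belong to complex I, 4 to complex II, 10 to complex III and cytochrome c, 16 to complex IV and 15 to the ATP synthase. Complex IV is taken here to include Ndufa4, which is named for complex I but is a component of complex IV, its paralogue Ndufa4l2 and the supercomplex factor Cox7a2l. The 3 remaining symbols (Cox4nb, Atp5s and Atp5sl) carry old names, and their products are not counted as subunits. Subunits encoded by mitochondrial DNA were not analysed here.

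The chain works as a relay. Complex I (NADH dehydrogenase) and complex II (succinate dehydrogenase, which is also a tricarboxylic acid cycle enzyme) feed electrons to ubiquinone, complex III passes them to cytochrome c, and complex IV (cytochrome c oxidase) passes them to oxygen. Complexes I, III and IV pump protons, and the ATP synthase uses the gradient to make ATP. In the liver lobule oxygen falls from the portal vein to the central vein, and Wnt signalling, for which Axin2 is a target gene and a feedback inhibitor, is active in hepatocytes around the central vein.

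The study compared hepatocytes by the activity of the Axin2 promoter. All 6 libraries came from C57BL/6 mice that carried Axin2rtTA and TetO-H2B-GFP, drank doxycycline for 7 days and were sampled at postnatal day 63. The doxycycline-dependent activator, made under control of Axin2, switches on a nuclear green fluorescent protein, and hepatocytes freed of non-parenchymal cells were sorted into fluorescent cells (Axin2-positive, 3 libraries) and non-fluorescent cells (Axin2-negative, 3 libraries). Both groups therefore share both transgenes and the drug, and the sort gate is the only difference between them that the labels name. The labels used here give no sequencing pool or run, so a difference in these was not tested. Libraries are numbered by their sequencing index, which occurs once in each group, and the libraries of 1 number are called a pair. They are named below by their labels, as positive 1 to 3 and negative 1 to 3. Nothing in the labels ties libraries to separate mice. A p-value here therefore measures only how much these libraries vary, which may be technical.

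Libraries held between 75882611 and 103386648 reads assigned to genes. Axin2 was measured at 2.40, 22.6 and 24.2 CPM (reads scaled to a common library size) in positive 1, 2 and 3 and at 3.04, 3.75 and 5.75 CPM in negative 1, 2 and 3, an order kept for all values below. The library labelled Axin2-positive 1 thus goes against its label, and every direction below that uses it carries this limit. The summed level of 15 pericentral marker genes was 3295, 19953 and 19542 CPM in the positive libraries, against 3298, 5606 and 6375 CPM in the negative libraries. The sum of 13 periportal markers was 8775, 3122 and 4613 CPM against 8846, 10461 and 11044 CPM. The sum of 6 general hepatocyte markers spanned 89312 to 179164 CPM and 84230 to 177490 CPM in the Axin2-positive and Axin2-negative groups. Summed markers of other cells were low, at 34.3 to 96.4 against 34.4 to 106 CPM for macrophages (12 of 13 genes in the table), 2.06 to 66.5 against 6.50 to 95.3 CPM for endothelial cells (10 of 10), 0.203 to 5.53 against 0.933 to 5.81 CPM for stellate cells (8 of 8, with Col1a1 at 0 to 3 reads) and 0.174 to 11.1 against 2.71 to 11.6 CPM for bile duct cells (6 of 6, with Krt7 at 0 to 3 reads). Of 7 red blood cell markers only Alas2 was in the table, at 16.4, 191 and 26.9 CPM in the positive and 15.7, 199.8 and 16.6 CPM in the negative libraries, so that it was high in both libraries of pair 2. The part of these markers in the differences below was not tested.

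Respiratory genes are known as targets of the transcription factors NRF1 and GABP (whose DNA-binding subunit is GABPA), which bind close to many of their start sites. Promoter sequence from RefSeq (build GRCm38.p6) was matched for 68 of the 83 genes, and the 250 bases before each start were searched on both strands. The NRF1 letters (GCGCA, any base, then GCGC) were present in 14 of 74 windows of these genes (18.9%) and in 3.74% of all 32851 windows. In windows of 60% GC or more the shares were 36.4% (8 of 22) and 9.28%. The GABPA letters CCGGAAG were present in 16.2% of the windows of these genes and 6.91% of all windows. At 60% GC or more these shares were 22.7% (5 of 22) and 13.0%. The following 30-base stretches run 5′ to 3′ on the strand of the gene, with the motif in capitals (CTTCCGG is CCGGAAG read on the other strand). They are from genes of complex II or with log2 fold changes of opposite sign in the comparison below, where none was called. A match is a description of these letters and not a binding site. The starts are those of RefSeq, so stretches of Sdha, Atp5g2 and Ndufb4 lie inside the gene coordinates given below. In 60 of the 74 windows the bases after the start were found near the beginning of an annotated transcript of the gene.
Sdha, chr13:74350241-74350270, minus strand: cgacacccgcgcgactcggtGCGCAAGCGC
Sdha, chr13:74350276-74350305, minus strand: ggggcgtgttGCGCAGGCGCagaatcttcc
Sdha, chr13:74350319-74350348, minus strand: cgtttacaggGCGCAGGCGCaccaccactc
Sdhd, chr9:50603909-50603938, minus strand: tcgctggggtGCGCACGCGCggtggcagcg
Sdhd, chr9:50603877-50603906, minus strand: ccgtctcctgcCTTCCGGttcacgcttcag
Atp5g2, chr15:102671070-102671099, minus strand: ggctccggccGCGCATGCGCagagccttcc
Ndufb4, chr16:37654371-37654400, minus strand: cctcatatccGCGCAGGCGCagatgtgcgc
Ndufb4, chr16:37654428-37654457, minus strand: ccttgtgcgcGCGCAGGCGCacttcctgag
Ndufb4, chr16:37654540-37654569, minus strand: gagaagcagtGCGCACGCGCagaatacgcg

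Transcript levels of different genes can be compared only per length, for which the authors' deposited table gives 1 FPKM (fragments scaled to transcript length and library size) per transcript and group, with no replicate values. On that scale, averaged over both groups, the highest genes were Atp5b at 607 FPKM, Uqcrq at 587 FPKM, Atp5g3 at 571 FPKM, Ndufa4 at 544 FPKM and Cox6a1 at 499 FPKM. These make the catalytic beta subunit and the c ring of the ATP synthase, a small subunit of complex III and small subunits of complex IV. In the authors' deposited table the median over genes was lowest for complex I, at 107 FPKM, and was 162 FPKM for complex II, 202 FPKM for complex III and cytochrome c, 251 FPKM for complex IV and 286 FPKM for the ATP synthase. The 4 genes of complex II lay closest together, between 149 and 170 FPKM, whereas complex I ran from 12.7 FPKM (Ndufa11) to 252 FPKM (Ndufb9). Cycs, which makes the mobile carrier cytochrome c, was the lowest of its group at 35.5 FPKM.

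**Figure D1:**
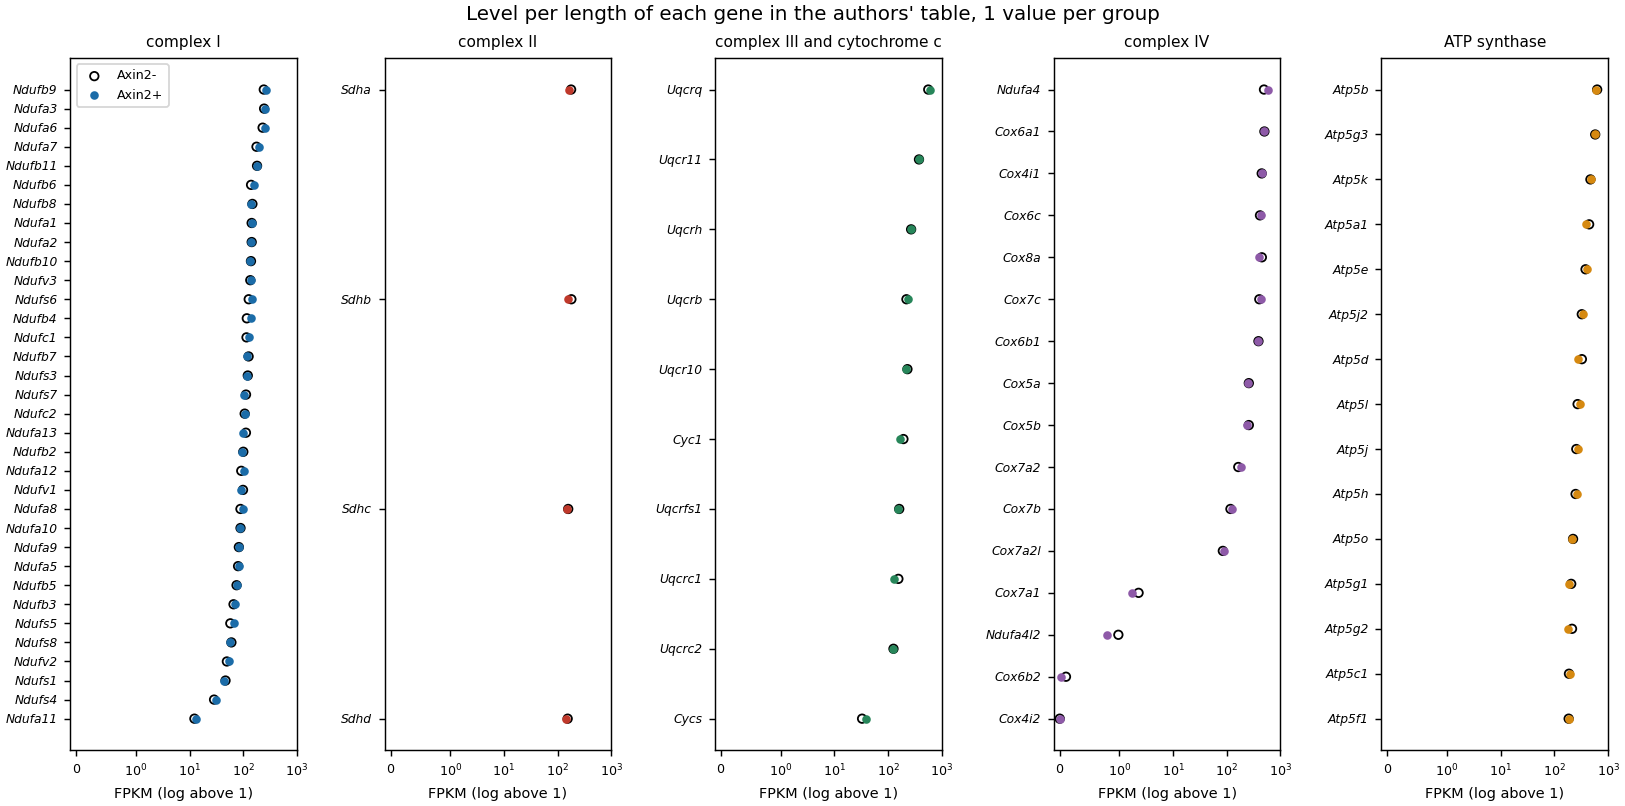
Level per length of the subunit genes shown in the authors' deposited table (FPKM on a horizontal axis that is logarithmic above 1), by complex, with open circles for Axin2-negative and filled circles for Axin2-positive hepatocytes, 1 value per group. The circles of a gene lie close together, and complex IV holds 4 genes far below its other subunits.

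Several subunits exist as paralogues of which 1 copy is known from muscle, testis or lung or from cells short of oxygen. Only the general forms were at a substantial level here. Cox4i1 was at 450 FPKM in the authors' deposited table, and its paralogue Cox4i2 had 0 to 1 reads per library. Cox6b1 was at 390 FPKM and the testis form Cox6b2 had 0 to 5 reads. Cox7a2 was at 175 FPKM and the muscle form Cox7a1 at 2.01 FPKM (22 to 64 reads). Ndufa4 was at 544 FPKM and Ndufa4l2, a gene known to be induced by low oxygen, at 0.886 FPKM (27 to 71 reads). Cox6a2, Cox7b2, Cox8b and Cox8c were listed at 0 in both groups of the authors' table. Of the 3 genes for the identical c subunit of the ATP synthase, Atp5g3 (571 FPKM) was above Atp5g1 (198 FPKM) and Atp5g2 (197 FPKM) in that table.

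None of the respiratory chain and ATP synthase genes passed the test between Axin2-positive and Axin2-negative hepatocytes. With edgeR's quasi-likelihood test over 12343 genes, 0 of the 81 tested genes were called in either direction at an adjusted p under 0.05, and over all genes tested the share called was also 0%. Cox4i2 and Cox6b2 had too few reads to be tested. No gene of the 81 had an unadjusted p under 0.05, which 279 of the 12343 genes had. DESeq2 and limma-voom also called 0 of the 81 and found 0 at an unadjusted p under 0.05. The fitted log2 fold changes ran from -0.30 to 0.27, with a median of 0.01 beside -0.01 over all genes tested. For the 78 genes with at least 200 reads in every library they ran from -0.23 to 0.27, and the 95% confidence intervals reached from -0.72 to 0.71. These intervals hold for the libraries as labelled, with positive 1, whose Axin2 lay below that of negative 1. They set no bound on a difference between cells sorted as labelled. The same edgeR fit also gave Axin2 and the pericentral marker Glul an adjusted p of 0.999. The median standard error was 0.13. Of 89 testable transcripts of these genes, 0 were marked significant in the authors' deposited table, beside 0.701% of all 13843 testable transcripts, and the lowest q-value among them was 0.9995.

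The same held for the summed level. These genes took 0.992, 1.05 and 0.992% of the reads of the positive libraries and 0.995, 1.17 and 0.9997% of the reads of the negative ones. The ranges of the groups overlapped. Single genes were steady over the 6 libraries: the highest library stood above the lowest by a median factor of 1.29 over 81 genes, with the widest range, 2.57, for the scarce Cox7a1. In 5 of the 81 genes the CPM values of the groups did not overlap, beside 7.21% of all genes tested. These were Atp5a1, Atp5b, Sdhc and Sdhd, lower in the Axin2-positive libraries, and Ndufb6, higher in them.

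**Figure D2:**
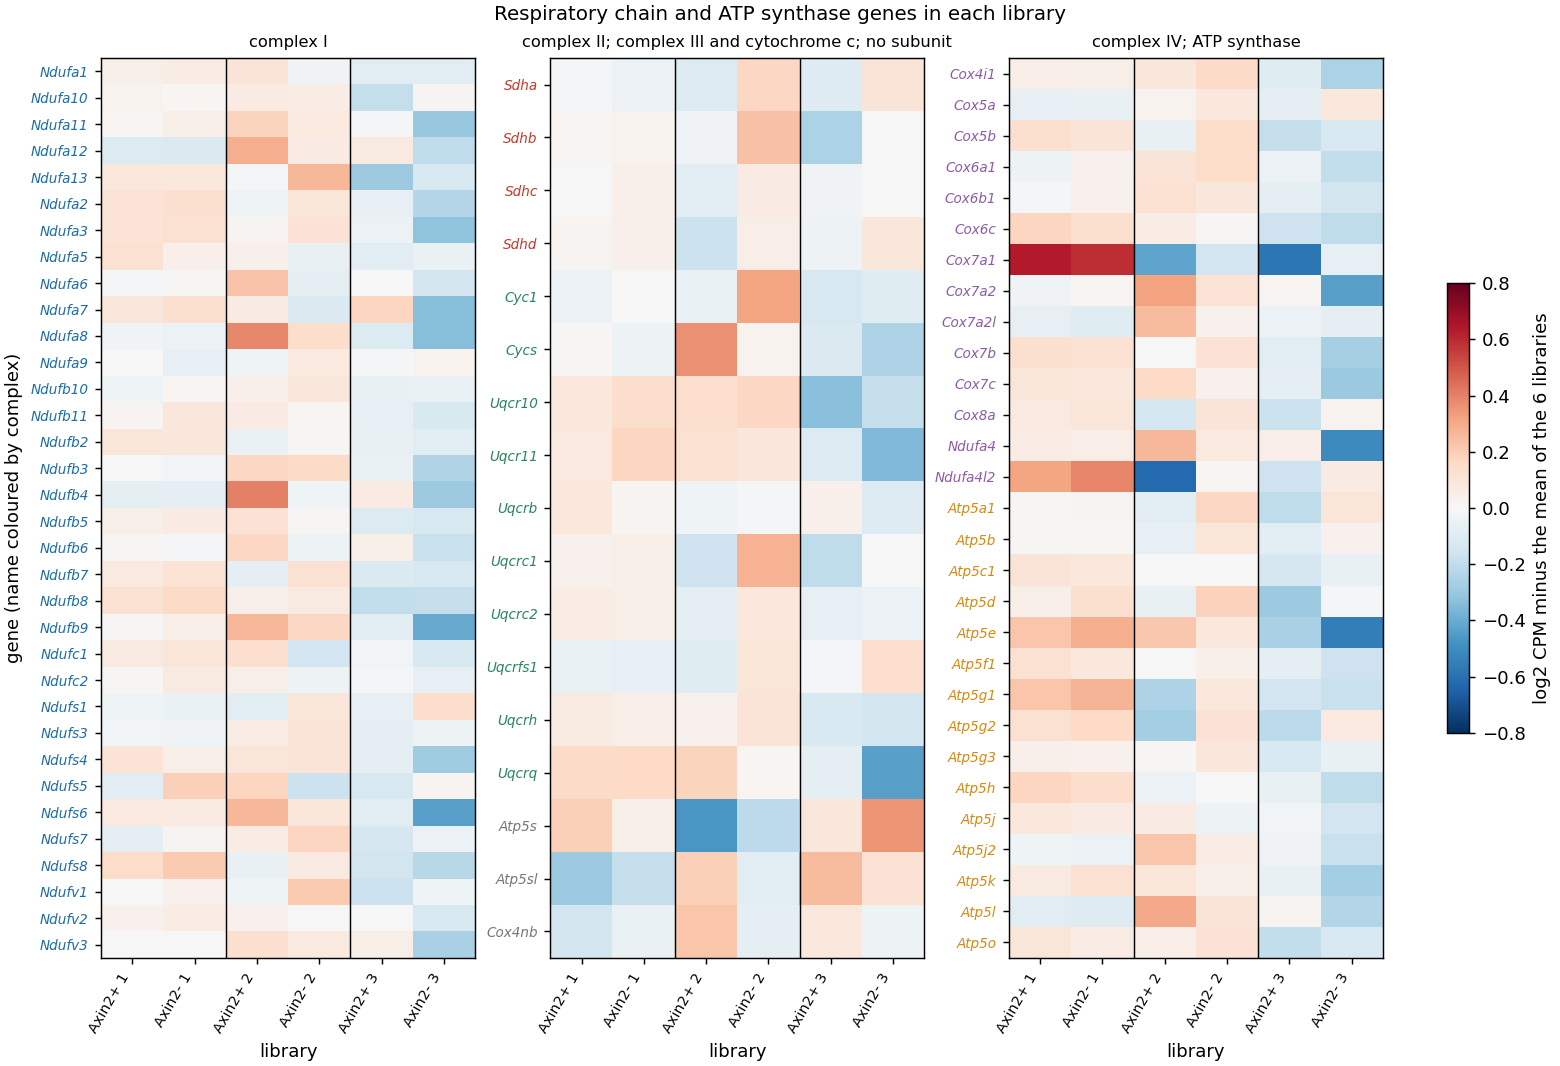
Each row is a gene (80 of the 81 tested) and each column a library (the members of a pair side by side), with the colour showing log2 CPM minus the mean of the gene over the 6 libraries. The libraries of pair 1 look alike, and most rows vary by less than the width of the colour scale, from -0.8 to 0.8.

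Within pairs the libraries of replicate 1 were nearly the same, while pairs 2 and 3 differed. The median size of the log2 difference over the 81 genes, taken without sign, was 0.03 in pair 1, 0.15 in pair 2 and 0.15 in pair 3. For genes tested with a mean of at least 25 CPM it was 0.03, 0.20 and 0.16. In pair 1, 67.9% of the respiratory genes differed by less than counting error allows (within 1.96 standard errors of the read counts), in pair 2 18.5% and in pair 3 25.9%, beside 68.4, 15.1 and 19.3% of all genes at that level. The signed medians of the 81 genes were -0.01, -0.03 and 0.03. Both positive 2 and positive 3 were lower than their partners in 29 of the 81 genes, beside 36.5% of all genes tested, and both were higher in 33, beside 35.3% of all genes tested. The pairs had different signs in the other 19. Among respiratory genes with a mean of at least 25 CPM, 26 of 76 were lower in both and 32 were higher in both. Of all 4543 genes at that level, 1340 were lower in both and 2091 were higher in both. Pairs 2 and 3 are also those in which the pericentral markers were higher and the periportal markers lower in the positive library, and the part of that shift was not tested.

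With the replicate number as a block in edgeR, 0 of the 81 genes were called, and the share over all genes was 0% (1132 of 12343 had an unadjusted p under 0.05). The lowest adjusted p of the 81 in that fit was 0.450. When pair 1 was left out of that fit, edgeR called 7.44% of 12385 genes and again 0 of the 81. The unadjusted p was then under 0.05 for 13 of the 81 genes, beside 27.1% of all genes. Those were 8 higher genes (Ndufb4, Ndufa4, Ndufa7, Cox7a2, Ndufs6, Ndufa12, Ndufa8 and Ndufb6) and 5 lower ones (Atp5g2, Uqcrc1, Atp5a1, Atp5d and Sdhb), and the lowest adjusted p, 0.0529, was that of Ndufb4. That fit has 2 libraries a group, and the pair it leaves out was chosen with its small differences known.

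**Figure D3:**
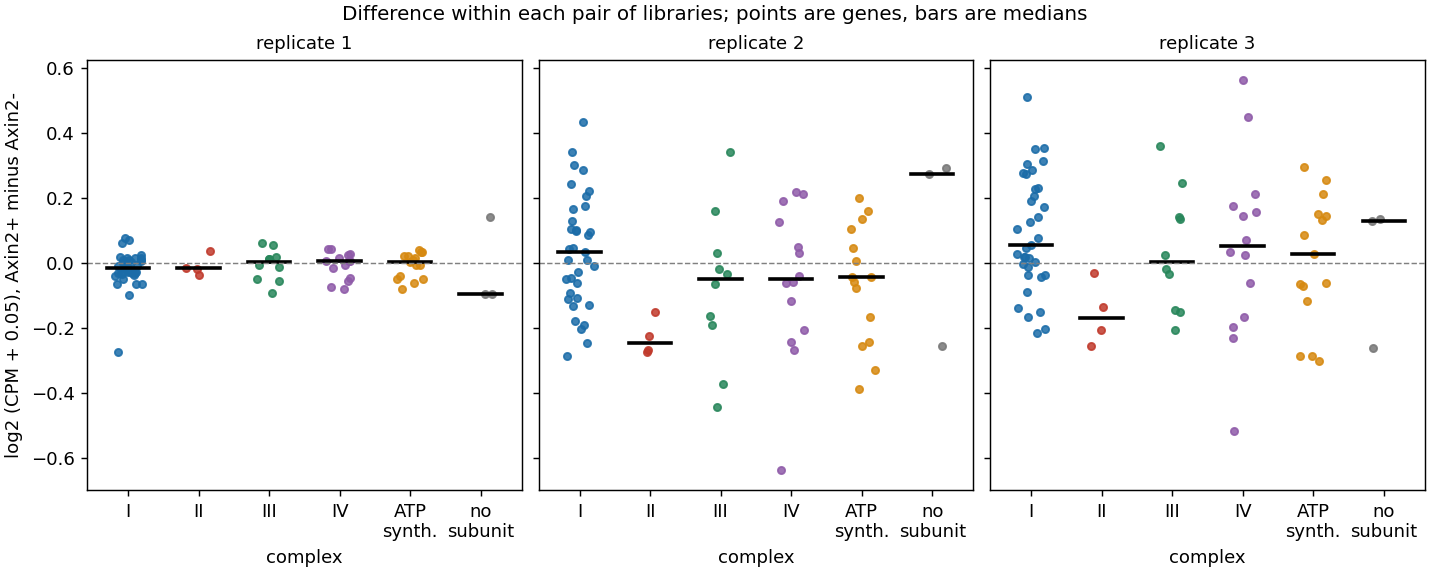
Within-pair difference (log2 of CPM + 0.05, Axin2-positive minus Axin2-negative library) of each gene, by complex, in pairs 1, 2 and 3. Points are genes and bars are medians; the 4 complex II points lie below 0 in pairs 2 and 3, and the other complexes lie on both sides of 0.

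Complex I showed values in both directions. The median log2 fold change of its 35 genes was 0.04 over 6 libraries, and 0 were called. The 7 core subunits, which hold the flavin and iron-sulfur centres that carry electrons from NADH to ubiquinone, had within-pair medians of -0.03, -0.13 and -0.04 in pairs 1, 2 and 3. The 28 accessory subunits, which surround and stabilise the core, had medians of -0.01, 0.09 and 0.12. Lower values in both pairs 2 and 3 were seen in 4 of 7 core genes and 4 of 28 accessory genes, and higher values in both in 1 of 7 and 16 of 28. Over all genes tested the shares were 36.5% lower in both and 35.3% higher in both. The difference between core and accessory genes was not tested, since the genes were grouped with their values known. With the median of all genes tested in the same mRNA length class taken off, the medians in pairs 2 and 3 were -0.21 and -0.09 for the core genes and -0.02 and -0.03 for the accessory genes, of which 11 of 28 were then lower in both pairs and 4 higher, beside 36.2% of all genes with a length in each direction. Under scaling by library totals alone the pair 2 median of all complex I genes was -0.03 and not 0.03.

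Ndufs1 makes the largest core subunit, at the point of electron entry. It stood at 129.7, 125 and 127 CPM in positive 1, 2 and 3 and at 128, 142 and 146 CPM in the negative ones. Ndufv1, which binds NADH and the flavin, stood at 141, 137 and 125 CPM against 144, 163 and 137 CPM. Both core genes were thus lower in positive 2 and 3 than in their partners, with groups that overlapped. Ndufs7, a core gene on the ubiquinone side, was lower in each pair by a similar small step, with differences of -0.10, -0.11 and -0.09. Ndufs3, its neighbour in the same arm, had differences of 0.01, -0.05 and -0.04. Ndufv2, the partner of Ndufv1, had -0.03, 0.03 and 0.13. Ndufa9 had 0.07, -0.11 and -0.04, and Ndufb8, whose protein is often used as a marker of assembled complex I, had -0.03, -0.03 and -0.00.

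Among the accessory subunits Ndufb4 (chromosome 16, 37647170 to 37654453, GRCm38) had the lowest p. It stood at 35.9, 50.2 and 39.7 CPM in the positive libraries and 36.2, 37.1 and 31.1 CPM in the negative ones. Only libraries 2 and 3 of the Axin2-positive group were above every Axin2-negative library. Its log2 fold change was 0.27 ± 0.15 (standard error, 3 against 3 libraries; edgeR adjusted p = 0.999). Ndufb6 stood at 49.5, 55.0 and 50.8 CPM against 48.8, 47.7 and 43.3 CPM, and the groups did not overlap (log2 fold change 0.15 ± 0.09). Ndufa7 stood at 59.5, 58.5 and 63.1 CPM against 61.2, 51.8 and 44.3 CPM, lowest in negative 3 (0.20 ± 0.13). Ndufa12 was at 37.4, 49.3 and 42.4 CPM against 37.2, 42.3 and 35.1 CPM (0.17 ± 0.13). Ndufa8, an accessory subunit of the intermembrane space, was at 54.1, 72.2 and 51.1 CPM against 53.4, 61.0 and 43.7 CPM. In these last 3 genes the groups overlapped. Leaving out positive 2 took the log2 fold change of Ndufb4 to 0.12 and that of Ndufa12 to 0.06, and leaving out negative 3 took that of Ndufa7 to 0.10.

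Complex II was lower throughout in pairs 2 and 3. It oxidises succinate at the flavoprotein Sdha, passes electrons through the iron-sulfur protein Sdhb and is held in the membrane by Sdhc and Sdhd. All 4 genes were lower in both positive 2 and positive 3 than in their partners, under each of the 4 scalings tried, and 1 of the 4 was higher in pair 1. Of all genes tested, 36.5% were lower in both under the main scaling. The smallest of these differences among the 4 genes was -0.03, in pair 3. The median difference was -0.02, -0.25 and -0.17 in pairs 1, 2 and 3, and the median log2 fold change over 6 libraries was -0.14. The summed level of the 4 genes was 921 ± 38.6 CPM in the positive libraries against 1014 ± 53.4 CPM (SD, 3 libraries each), and 0 of the 4 genes were called.

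Sdha (chromosome 13, 74322254 to 74350280, GRCm38) stood at 494, 463 and 464 CPM in positive 1, 2 and 3 and at 482, 559 and 535 CPM in the negative ones. The lowest Axin2-negative value lay within the Axin2-positive range, so the groups overlapped, and the log2 fold change was -0.15 ± 0.12. Sdhb (chromosome 4, 140961203 to 140979193) stood at 162, 157 and 135 CPM against 163, 189 and 161 CPM, with a log2 fold change of -0.18 ± 0.13. Here too positive 1 lay among the negative libraries, and the log2 fold change was -0.10 without negative 2 and also without positive 3. Sdhc (chromosome 1, 171127165 to 171150603) stood at 139.9, 132 and 137 CPM against 143, 146 and 139.9 CPM. Sdhd (chromosome 9, 50596357 to 50603812) stood at 170.2, 149 and 163 CPM against 172, 174 and 179 CPM. For the membrane anchors each Axin2-positive library was below each Axin2-negative one, but for Sdhc the highest Axin2-positive and the lowest Axin2-negative library both rounded to 139.9 CPM.

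For the 10 genes of complex III and cytochrome c the median log2 fold change was -0.03, and 0 were called. Uqcrc1 (chromosome 9, 108936633 to 108949623), which makes a large core protein on the matrix side, had the lowest log2 fold change. It stood at 201, 175 and 170.2 CPM in the positive libraries and 202, 237 and 197 CPM in the negative ones (log2 fold change -0.22 ± 0.13). The values of libraries 2 and 3 were lower, the groups overlapped through library 1, and without negative 2 the log2 fold change was -0.13. Its partner Uqcrc2 had within-pair differences of 0.01, -0.16 and -0.02. The electron carriers of the complex were the Rieske protein Uqcrfs1, with differences of 0.01, -0.19 and -0.15, and cytochrome c1 (Cyc1), with -0.05, -0.37 and -0.03. Cycs went the other way. It stood at 121, 155 and 111 CPM against 116, 122 and 100.7 CPM, above its partner in each pair, with overlapping groups.

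The median log2 fold change of the 14 tested complex IV genes was 0.01, with 9 higher, 5 lower and 0 called. The named nuclear subunits had small differences of either sign. Cox4i1, which regulates the enzyme by binding adenine nucleotides, had within-pair differences of 0.01, -0.06 and 0.16. Cox5a had -0.01, -0.06 and -0.17, Cox5b 0.03, -0.21 and -0.06, and Cox7c 0.02, 0.13 and 0.21. Cox6c was higher in each pair by a small step, with 0.04, 0.05 and 0.04. Ndufa4 had the largest difference of pair 3. It stood at 193, 223 and 193 CPM in the positive libraries and at 193, 196 and 130.4 CPM in the negative ones (log2 fold change 0.23 ± 0.19). Negative 3 was the lowest, the groups overlapped, and without that library the log2 fold change was 0.07. Cox7a2 was similar, at 94.0, 119.7 and 97.0 CPM against 97.0, 103.4 and 71.0 CPM. Cox7a2l, which helps to join complexes III and IV, was at 76.5, 95.4 and 77.6 CPM against 75.0, 82.0 and 76.2 CPM, above its partner in each pair. The scarce Ndufa4l2 had the lowest log2 fold change of all 81 genes, from 27 to 71 reads a library, and its differences were -0.08, -0.64 and -0.23.

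**Figure D4:**
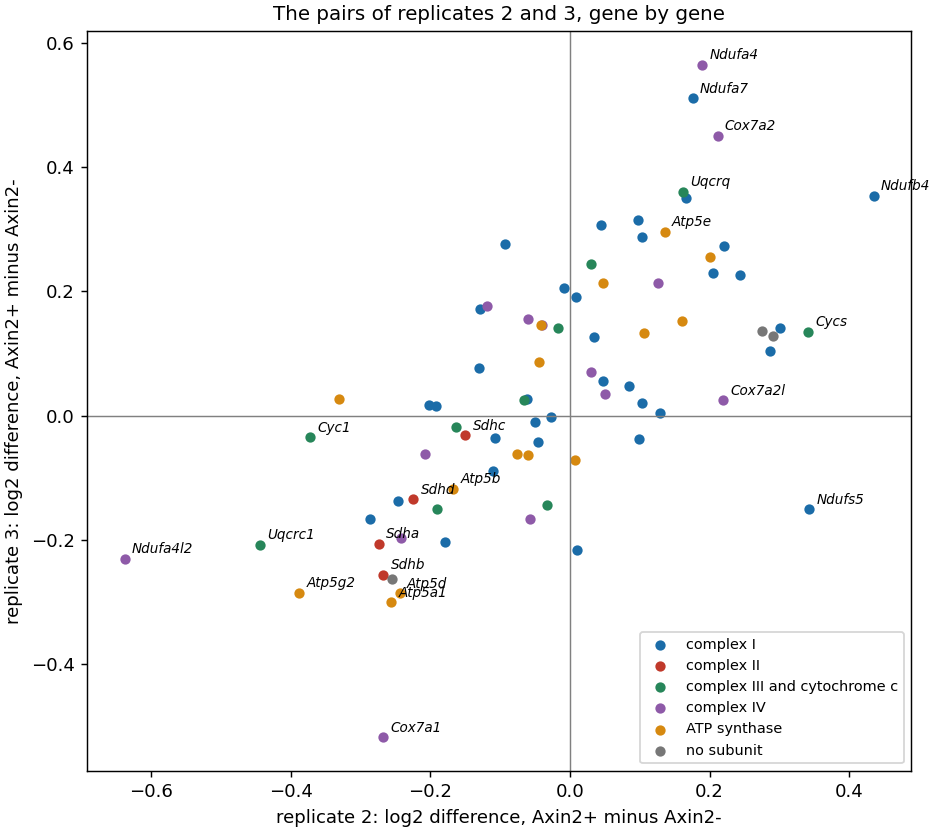
Each gene's within-pair log2 difference (Axin2-positive minus Axin2-negative) in pair 2 (horizontal) and pair 3 (vertical), coloured by complex. Of the 81 genes, 33 lie above 0 on both axes, 29 below 0 on both and 19 have different signs; the 4 complex II genes lie in the lower left.

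In the ATP synthase 3 of 5 genes of the catalytic head and central stalk were lower in both pairs 2 and 3. For the c ring this held for 2 of 3 genes, beside 36.5% of all genes tested. Of the 7 other stalk and membrane genes 4 were higher in both pairs and 1 was lower, beside 35.3% higher over all genes. In the head and central stalk only Atp5e was higher in both, with differences of -0.06, 0.14 and 0.30. The difference between the parts was not tested. Over the 15 genes of the ATP synthase the median log2 fold change was -0.01, with 0 called. The 5 genes of the F1 head and central stalk had within-pair medians of -0.01, -0.17 and -0.12, the 3 c ring genes -0.04, -0.33 and -0.06, and the 7 other stalk and membrane genes 0.02, 0.05 and 0.15, where 0.05 became -0.02 under scaling by library totals alone. Atp5b (chromosome 10, 128083273 to 128090391), which makes the catalytic beta subunit, stood at 1194, 1132 and 1119 CPM in the positive libraries and at 1198, 1270.2 and 1214 CPM in the negative ones. Atp5a1, the alpha subunit, stood at 967, 898 and 831 CPM against 972, 1072 and 1024 CPM (log2 fold change -0.19 ± 0.13). In both of these genes the groups did not overlap, with library 1 of each group nearly equal. Atp5c1, the rotating gamma shaft of the head, had differences of 0.02, 0.01 and -0.07. Atp5d, the delta subunit of the central stalk, stood at 179, 166 and 141 CPM against 189, 197 and 172 CPM and was lower in each pair (-0.20 ± 0.13, and -0.11 without positive 3).

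Atp5g2 (chromosome 15, 102662864 to 102672352) had the lowest p among the lower genes. It stood at 85.8, 65.5 and 68.3 CPM in the positive libraries and 88.2, 85.6 and 83.2 CPM in the negative ones, with a log2 fold change of -0.23 ± 0.13 (edgeR adjusted p = 0.999). Its groups overlapped only through positive 1, without which the log2 fold change was -0.36. The other c ring genes had smaller values: Atp5g1 had differences of -0.05, -0.33 and 0.03, and Atp5g3, the most abundant copy per length, 0.00, -0.08 and -0.06. In the membrane and peripheral stalk, Atp5j (coupling factor 6) was higher in each pair, with 0.02, 0.11 and 0.13, and Atp5o, which joins the stalk to the head, had 0.03, -0.06 and -0.06. Over all complexes 14 genes were higher in each of the 3 pairs and 17 were lower in each. This count was not made over all genes, so it has no share to be read against. In pair 1, 67.9% of the differences of the 81 genes lay within counting error, so the sign there says little.

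The within-pair differences moved with mRNA length. The Spearman correlation of the within-pair difference with mRNA length was 0.13, -0.31 and -0.36 in pairs 1, 2 and 3 over the 80 respiratory genes with an annotated length, and 0.06, -0.12 and -0.07 over 11635 genes; genes of 1 library share its depth and preparation, and these values are a description. The 44 respiratory genes with an mRNA under 800 bases had medians of -0.02, 0.03 and 0.14, and the 36 longer ones -0.00, -0.13 and -0.04. All genes under 800 bases had medians of -0.01, 0.14 and 0.17 in the same pairs. When the median of all genes tested in the same length class was taken off, the median of the respiratory genes was -0.14 in pair 2 and -0.07 in pair 3, with 44 of 80 lower in both (beside 36.2% of the 11635 genes on the same scale) and 12 higher in both (beside 36.2%). For complex II it was then -0.27 and -0.18, with 4 of 4 lower in both. This correction was chosen after the data were seen, and the part of length in the differences was not tested. The class medians include the respiratory genes themselves. Of 166 genes under 600 bases, 26 were respiratory and 26 were cytosolic ribosomal protein genes. The latter had medians of 0.36 and 0.42 in pairs 2 and 3, and ribosomal protein genes of 1500 bases or more had 0.25 and 0.24. The part of these genes in the medians taken off was not tested.

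**Figure D5:**
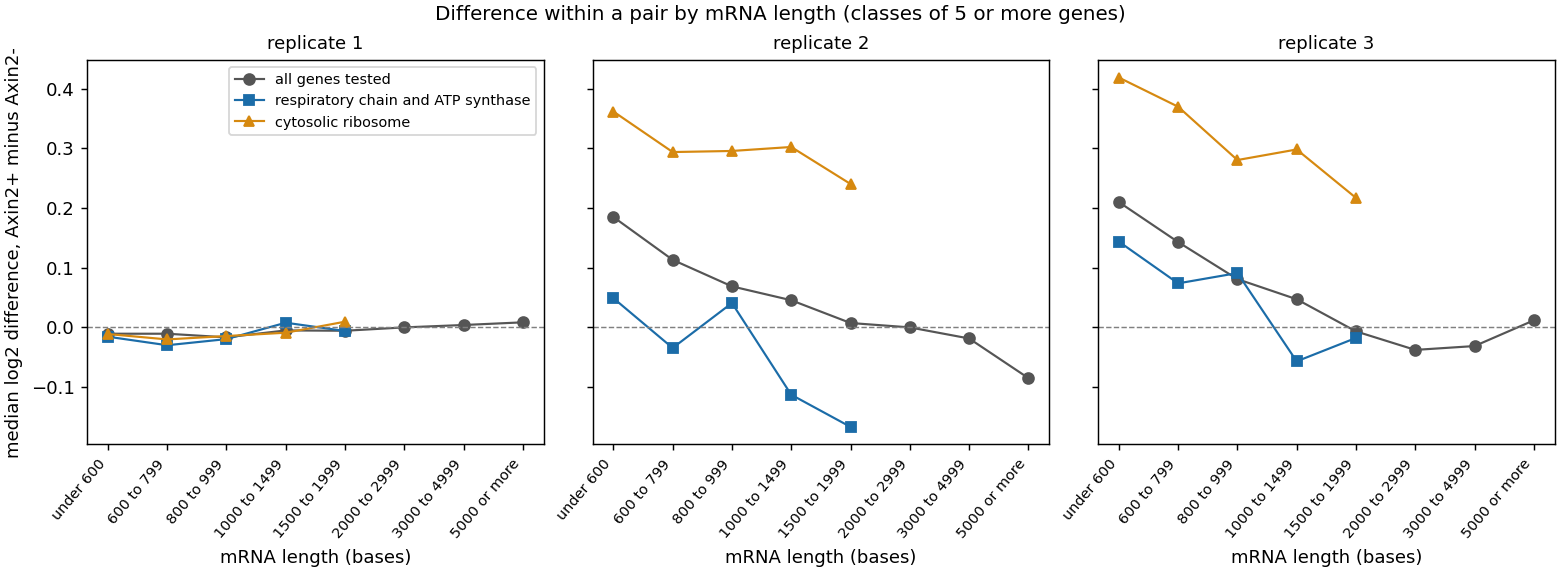
Median within-pair log2 difference (Axin2-positive minus Axin2-negative) by class of mRNA length in bases, for all genes tested (circles), respiratory chain and ATP synthase genes (squares) and cytosolic ribosomal protein genes (triangles), classes of 5 or more genes. In pairs 2 and 3 the medians of short mRNAs lie above those of long ones, and the respiratory genes lie below all genes in most classes; pair 1 is flat near 0.

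Of the 13 genes with the NRF1 letters, 5 were higher in both pairs 2 and 3, 3 were lower in both and 5 had different signs, with medians of 0.05 and 0.15. The 54 tested genes with a window that lacked them had 24 higher in both, 20 lower in both and 10 with different signs, with medians of -0.03 and 0.03. Over all genes tested 35.3% were higher in both and 36.5% lower in both. The difference between genes with and without the letters was not tested. Sdha and Ndufb4 each hold the NRF1 letters at 3 places before the RefSeq start. Their differences in pairs 2 and 3 had opposite signs (-0.27 and -0.21 for Sdha, 0.44 and 0.35 for Ndufb4). Sdhd and Atp5g2, which hold them at 1 place each and with Sdha are the 3 lower genes, had -0.22 and -0.13 and -0.39 and -0.29.

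Genes that work beside the chain were read from lists in the same edgeR fit, in which 0 were called in each list. The 30 assembly factors had a median log2 fold change of 0.05 and the 76 mitochondrial ribosomal protein genes 0.05. The 18 tricarboxylic acid cycle genes had 0.01, the 18 genes of coenzyme Q synthesis and electron entry -0.04, the 11 tested carriers -0.03 and the 17 regulators -0.07. The 81 cytosolic ribosomal protein genes had 0.20, with medians of -0.01, 0.30 and 0.32 in pairs 1, 2 and 3. The fit of pairs 2 and 3, in which 7.44% of all genes were called, called 4 of 18 tricarboxylic acid cycle genes higher and 0 lower, 10 of 81 cytosolic ribosomal protein genes higher, 2 of 76 mitochondrial ribosomal protein genes higher, 0 of 30 assembly factors, 1 of 18 coenzyme Q and electron entry genes higher and 2 lower, 1 of 11 carriers lower and 2 of 17 regulators lower.

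Cs, the citrate synthase that opens the tricarboxylic acid cycle, stood at 155, 222 and 172 CPM in the positive libraries and at 152, 140.0 and 113 CPM in the negative ones. Its edgeR adjusted p was 0.0315 in the fit of pairs 2 and 3 and 0.999 over 6 libraries. Gpd2, the mitochondrial glycerol-3-phosphate dehydrogenase that feeds electrons to ubiquinone beside complexes I and II, stood at 51.9, 84.6 and 60.1 CPM against 48.4, 44.2 and 36.9 CPM (edgeR adjusted p 0.0149 over pairs 2 and 3 and 0.999 over 6 libraries). Ppargc1b, a coactivator of respiratory genes, stood at 5.62, 2.15 and 3.37 CPM against 5.28, 5.31 and 6.53 CPM (edgeR adjusted p 0.0333 and 0.999 in the same fits). In these 3 genes libraries 2 and 3 of the groups stood apart while library 1 did not. Of the 17 regulators, 7 had a log2 fold change above 0 over 6 libraries and 10 below. Among the higher ones, Gabpb1 had within-pair differences of -0.06, 0.47 and 0.24 and Tfam 0.08, 0.22 and 0.16, and neither was called.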

How the data were processed

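The libraries were made with the TruSeq Stranded mRNA kit, per the labels' protocols. The submitters' processing notes name TopHat2 2.0.11 and the build mm10. Read counts for each gene symbol, not normalized, were deposited by the authors. They also deposited FPKM values, p-values and q-values per transcript and group, from Cuffdiff 2.2.2 per the submitters' processing notes. How reads were assigned to genes, and whether by strand, is not given in the sources used here. Of the 83 genes, 25 overlap an exon of a gene on the other strand and 14 have a copy of at least 95% identity over at least 50% of the mRNA, so their counts are uncertain.

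The counts were fitted in R 4.3.3 with edgeR 4.0.16 (default filter on low counts, TMM scaling, group only) over the whole table, and p-values were adjusted by Benjamini-Hochberg (threshold 0.05). Log2 differences within a pair use CPM + 0.05. Medians over genes are descriptions. Alternatives were DESeq2 1.42.0, limma-voom (limma 3.58.1), other scalings, no filter, a threshold of 0.01, the replicate block, and each library or pair left out.

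Over all genes tested, same-numbered libraries deviated together from their group means (correlations 0.68, 0.82 and 0.75), and the shared index was used to pair the libraries. The main fit, with its fold changes and standard errors, did not use these pairs. The highest correlation between other numbers was 0.14.

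The members, lists and tests were chosen with earlier results of these data known. Genes were named as fixed subunits of each complex and paralogue sets. Others were the 4 in each direction with the lowest p in the fit of 6 libraries with and without the block. A further 4 in each direction had the same sign in 3 pairs and at least 20 reads in every library. They were those whose smallest within-pair difference was largest. Genes of neighbouring lists were named only from the 2 with the lowest p of their direction in a list. Which of these are named was chosen, like Atp5e and other names in counts, after their values were seen. mRNA lengths and coordinates are from GENCODE M21 (GRCm38). The values of 1 complex I gene are not reported here; it is counted in the totals and medians.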

Additional observations from a re-analysis of the deposited data

How the results depend on the processing

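No respiratory gene was called under any alternative run, and the log2 fold changes of the 11 genes recomputed singly kept their sign. Most of these 11 were picked for the lowest p in the same libraries, so their kept sign is no separate support. Over all genes the number called was 0 in 6 libraries and with the replicate block, which leaves the call of 0 respiratory genes as it was, 922 with the block and pair 1 left out, and 0 to 6 with 1 library left out in turn (6 where this was Axin2-positive 1). With a single library left out, the median log2 fold change ranged from -0.050 to 0.060 for all respiratory genes, from -0.028 to 0.068 for complex I, from -0.083 to 0.051 for complex III and cytochrome c, from -0.064 to 0.069 for complex IV and from -0.080 to 0.055 for the ATP synthase. These medians lie on both sides of 0. For complex III and cytochrome c it was 0.010 with the block and pair 2 left out. Scaled by library totals only, pair 2 medians were -0.098 for all respiratory genes, -0.032 for complex I, -0.114 for complex III and cytochrome c, -0.114 for complex IV and -0.109 for the ATP synthase. With the median of the mRNA length class taken off they were -0.141, -0.081, -0.210, -0.167 and -0.146 in the same order in pair 2, and -0.067, -0.066, -0.048, -0.068 and -0.060 in pair 3. The causes were not tested. With 3 libraries a group the median standard error of a single gene's log2 fold change was 0.13.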

Other observations

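Ndufs5, an accessory subunit of complex I, had 65 to 101 reads per library in the count table, while the authors' deposited table gave it 65.9 FPKM in Axin2-positive and 57.3 FPKM in Axin2-negative hepatocytes. Its counts per kilobase were 0.029 times its FPKM there, and the median of that ratio over 82 genes was 0.726. Ndufs5 has 1 annotated copy of at least 95% identity elsewhere in the genome, and the part of that copy was not tested. Ndufa11 lay at the other end, with a ratio of 4.35. For these 2 genes the level depends on which deposited table is read. Over the 82 genes the tables ranked levels with a Spearman correlation of 0.89, across genes, which are not independent replicates.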
